A study of Mus musculus with 9 samples.

Results

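Genes of muscle cell fusion and of satellite cells, 10 of the 32594 in the deposited count table, were compared between hindlimb skeletal muscle of SMA and wild type mice. They were picked by name: Tmem8c (now Mymk), Gm7325 (now Mymx), Cdh15, Cdon, Itga7, Megf10, Sdc4, Hes6, Heyl and Calcr. Each had 1 row in the table, and all 10 passed the filter on low counts.

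The 9 libraries of polyadenylated RNA came from 4 muscle samples of mice with the SMN delta 7 genotype (SMA) and 5 of wild type mice (WT), all on an FVB/N background. SMN delta 7 is a mouse model of spinal muscular atrophy, a disease of motor neurons caused by too little SMN protein. The labels give no treatment, age, sex or litter, and do not say which muscles of the hindlimb were taken or whether animals were pooled. They also do not say that replicates were separate animals, so p-values reflect how far these samples spread, and that spread may be technical.

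Skeletal muscle fibres form when single-nucleus myoblasts fuse with each other or with existing fibres. Fusion needs a pair of muscle-specific membrane proteins, myomaker and myomixer, and is helped by adhesion proteins that bring the cells together. Satellite cells are the stem cells of muscle, which rest between the fibre membrane and its laminin sheath. Notch signals hold them in a resting state, and basic helix-loop-helix proteins such as MyoD and myogenin drive them towards fusion by binding E-boxes, short DNA motifs of the form CANNTG.

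The 250 bases before the annotated start are shown for Hes6, which fell in SMA muscle, and Calcr, which rose there, because one gene belongs to differentiating myoblasts and the other to resting satellite cells, and they moved in opposite directions. Both are RefSeq sequences of build GRCm38.p6 on the minus strand, at chr1:91414039-91414288 for Hes6 and chr6:3764714-3764963 for Calcr, and capitals mark E-boxes.
Hes6: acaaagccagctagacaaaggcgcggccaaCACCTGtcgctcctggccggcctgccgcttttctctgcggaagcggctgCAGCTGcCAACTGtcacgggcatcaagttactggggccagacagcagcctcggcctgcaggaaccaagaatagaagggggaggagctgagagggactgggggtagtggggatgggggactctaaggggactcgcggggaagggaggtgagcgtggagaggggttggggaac
Calcr: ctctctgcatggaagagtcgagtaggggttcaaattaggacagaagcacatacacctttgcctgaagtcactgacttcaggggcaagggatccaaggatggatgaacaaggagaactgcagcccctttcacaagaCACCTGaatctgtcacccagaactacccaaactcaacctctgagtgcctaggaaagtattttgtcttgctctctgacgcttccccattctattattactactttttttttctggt
A search of these windows on both strands found 3 E-boxes before Hes6, 1 of them CAGCTG, and 1 E-box, CACCTG, before Calcr. The CAGCTG lay 171 to 166 bases before the Hes6 start and the CACCTG 115 to 110 bases before the Calcr start. Of 32841 RefSeq promoter windows of this length, 66.2% held at least 1 CANNTG and 13.0% at least 1 CAGCTG, which is itself a form of CANNTG. The motif GTGGGAA of the Notch effector RBPJ was found in neither window, and in 5.41% of all windows. RefSeq windows were matched for Cdh15, Cdon and Sdc4 as well, and the window at the gene's start held 3 E-boxes for Cdh15 and 0 for Sdc4. At other annotated starts, the window held 1 E-box for Hes6, also CAGCTG, 0 for Calcr and 0 for Cdon, whose single window this is. A match is a run of letters and shows no binding.

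Libraries held 24917665 to 35087722 counts. The targeted gene Smn1 had 1.4 to 2.72 CPM (counts-per-million of the library, scaled between libraries) in SMA muscle and 11.1 to 13.8 CPM in WT muscle. Genes of the muscle fibre were abundant in every library, and 12 of them summed to 77671 to 92788 CPM in SMA and 134537 to 186514 CPM in WT. Library SMA 3 stood apart, because 10 neuron markers summed to 71.6 CPM there, against 9.53 to 10.2 CPM in the other SMA libraries and 9.23 to 12.5 CPM in WT, with Chat at 0 in all 9. Counts of Xist and Y-linked genes split the groups unequally by sex, with Y-linked genes above Xist in 1 of 4 SMA and 4 of 5 WT libraries. Changes of the called genes are therefore given with and without SMA 3, and with sex in the fit.

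Of the 10 genes, 4 fell in SMA muscle, 2 rose and 4 were not called, by edgeR's quasi-likelihood test at a Benjamini-Hochberg adjusted p under 0.05. Among all 15873 genes tested, 54.9% were called, with 27.7% that rose and 27.2% that fell, so 6 called genes of 10 lie near the share in all genes. In 5 of the 10 the SMA and WT ranges did not overlap, against 44.2% of all genes tested. The median log2 fold change of the 10 was -0.24, and that of all genes tested was 0.006. In bulk muscle, fewer cells of a type and less RNA per cell cannot be told apart.

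**Figure D1:**
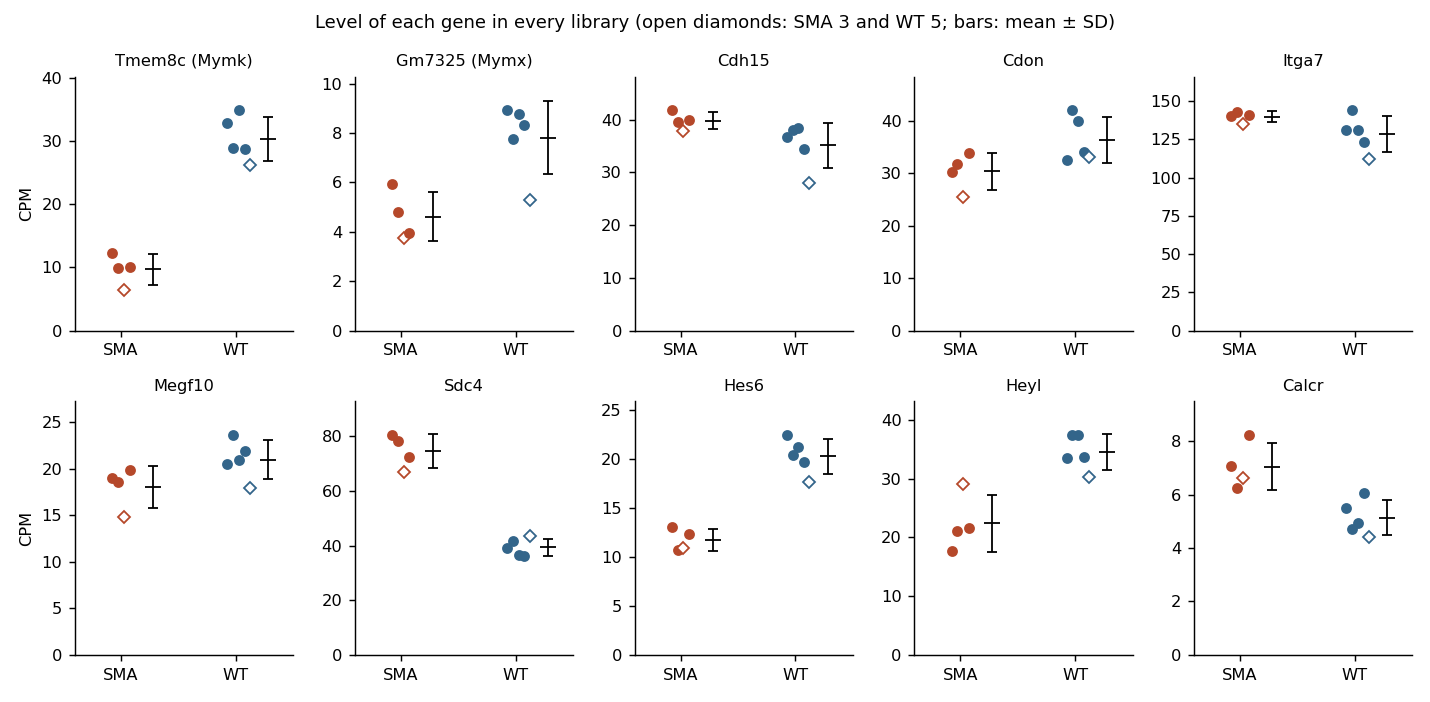
Level of each of the 10 genes in CPM (vertical axis, from 0) in every SMA and WT library (points), with the mean and SD beside each group; open diamonds are SMA 3 and WT 5. The Tmem8c points of SMA, 6.37 to 12.3 CPM, lie below all WT points, 26.2 to 34.9 CPM, and the Sdc4 points of SMA, 67.1 to 80.7 CPM, lie above all WT points, 36.3 to 43.6 CPM.

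The fusion genes Tmem8c and Gm7325 both fell, Tmem8c the further. Tmem8c (chr2:27061636-27072179 of build mm10, as all gene positions here, minus strand) encodes myomaker, the membrane protein that must be present for myoblast membranes to merge. It had 12.3, 9.96, 6.37 and 10.1 CPM in SMA 1 to 4, against 32.8, 28.9, 34.9, 28.7 and 26.2 CPM in WT 1 to 5. Every SMA library was below every WT library, and SMA 3 was the lowest. The means were 9.68 ± 2.45 CPM in SMA and 30.3 ± 3.48 CPM in WT (SD, n = 4 and 5), a 3.13-fold lower level. The log2 fold change was -1.65 ± 0.16 (SE), with a 95% interval from -2.0 to -1.3 and an adjusted p = 6.14e-06 by edgeR. Without SMA 3 it was -1.49. In every alternative tried it was the most negative fold change of the 10 genes, between -1.78 and -1.42.

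Gm7325 (chr17:45600971-45602102, minus strand) encodes myomixer, a small membrane peptide that acts after myomaker to complete the fusion pore. It had 5.95, 4.79, 3.75 and 3.96 CPM in SMA 1 to 4, against 8.93, 7.78, 8.77, 8.35 and 5.28 CPM in WT 1 to 5. The groups overlapped through 2 libraries, since SMA 1 was above WT 5. The log2 fold change was -0.76 ± 0.18 with a 95% interval from -1.15 to -0.37 (adjusted p = 0.00342 by edgeR), and it was -0.67 without SMA 3 and -0.87 without WT 5.

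Within each library, the count of Tmem8c was compared with that of Gm7325, a ratio that needs no scaling between libraries. It was 2.06, 2.07, 1.7 and 2.54 in SMA 1 to 4, against 3.66, 3.71, 3.97, 3.43 and 4.94 in WT 1 to 5. The groups did not overlap, so Tmem8c fell relative to its partner. The mean log2 ratio was 1.05 ± 0.24 in SMA and 1.97 ± 0.20 in WT (SD), a difference of -0.92 (exact permutation test, two-sided, with p = 0.00794 and an adjusted p = 0.019 across 12 ratios). That p is the smallest that the 126 divisions of 9 libraries can give. The 12 pairs were chosen with earlier results of these data known, and the adjustment does not cover that choice.

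Both fusion genes were also set against Myog, which encodes myogenin, a regulator that switches on late genes of myoblast differentiation. Myog itself fell, with 92.7 ± 8.3 CPM in SMA and 123 ± 9.82 CPM in WT (log2 fold change -0.41 ± 0.087, adjusted p = 0.00188 by edgeR). Under scaling to total counts Myog was at -0.17 and was not called (adjusted p = 0.084 by edgeR). The Tmem8c to Myog ratio averaged -3.29 on the log2 scale in SMA and -2.02 in WT, a difference of -1.27 with no overlap (exact permutation test, adjusted p = 0.019). Tmem8c was thus lower in SMA muscle per Myog count as well. The Gm7325 to Myog ratio differed by -0.35 with overlapping groups and was not called (exact permutation test, adjusted p = 0.19), though without WT 5, the lowest library for this ratio, its adjusted p was 0.0381 by the same test.

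**Figure D2:**
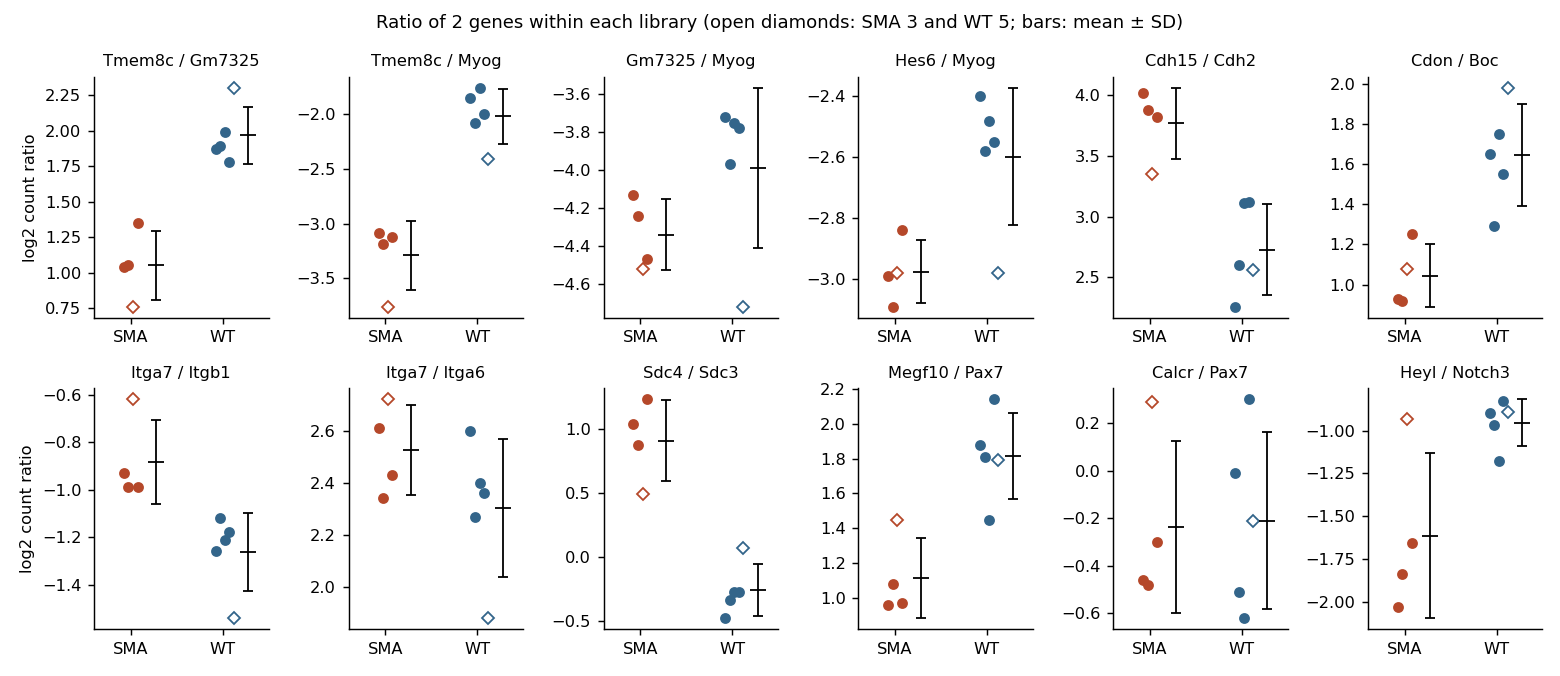
Log2 ratio of the counts of 2 genes within each library (vertical axes, each with its own range that does not start at 0) for 12 gene pairs; points are libraries, SMA left of WT, bars give mean and SD, and open diamonds are SMA 3 and WT 5. Tmem8c to Gm7325 lies at 0.76 to 1.35 in SMA and 1.78 to 2.3 in WT, while Calcr to Pax7 overlaps throughout.

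Among the adhesion genes, neither cadherin-15 nor its co-receptor Cdon was called. Cdh15 (chr8:122847966-122867397, plus strand) encodes M-cadherin, which holds satellite cells to fibres and myoblasts to each other. It had 41.8, 39.6, 37.8 and 39.9 CPM in SMA, against 36.7, 38.0, 38.5, 34.5 and 27.9 CPM in WT. The groups overlapped at their edge, SMA 3 being just below WT 2 and WT 3, and the log2 fold change was 0.18 ± 0.094 with a 95% interval from -0.02 to 0.38 (adjusted p = 0.124 by edgeR). N-cadherin, encoded by Cdh2, fell in the same libraries, with 2.93 ± 0.52 CPM in SMA and 5.39 ± 1.52 CPM in WT (log2 fold change -0.88 ± 0.21, adjusted p = 0.00332 by edgeR). The count ratio of Cdh15 to Cdh2 was 10.2 to 16.2 in SMA and 4.78 to 8.68 in WT, with no overlap, a log2 difference of 1.04 (exact permutation test, adjusted p = 0.019). Muscle of both groups had more Cdh15 than Cdh2 counts, and the more so in SMA.

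Cdon (chr9:35421128-35507652, plus strand) encodes an immunoglobulin superfamily receptor that works beside cadherins to promote differentiation and is also a Hedgehog co-receptor. It had 30.3, 31.7, 25.4 and 33.9 CPM in SMA, against 32.6, 42.0, 39.9, 34.0 and 33.1 CPM in WT. SMA 4 was above WT 1 and WT 5, and the other SMA libraries were below all WT libraries. The log2 fold change of -0.26 ± 0.11 had a 95% interval from -0.49 to -0.03 before adjustment, and an adjusted p = 0.0546 by edgeR, just short of a call. It passed in 6 of 19 alternatives, among them DESeq2 with an adjusted p of 0.0436. Under scaling to total counts it was -0.037 (adjusted p = 0.823 by edgeR), and without SMA 3 it was -0.185 (adjusted p = 0.129 by edgeR). Its close relative Boc was not called either, at 14.7 ± 2.06 CPM in SMA and 11.9 ± 3.28 CPM in WT (adjusted p = 0.159 by edgeR). The ratio of Cdon to Boc counts was 1.9 to 2.38 in SMA and 2.44 to 3.95 in WT, a log2 difference of -0.60 without overlap (exact permutation test, adjusted p = 0.0272).

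Itga7 (chr10:128933818-128958282, plus strand) encodes the integrin alpha chain that, paired with beta 1, anchors fibres and satellite cells to laminin. Its CPM was the highest of the 10 in both groups, and among SMA libraries it varied least, with 140.1, 143, 135 and 141 CPM in SMA, against 131, 144, 131, 123 and 112 CPM in WT. The SMA values lay within the WT range, and the log2 fold change was 0.13 ± 0.081 with a 95% interval from -0.05 to 0.31 (adjusted p = 0.202 by edgeR). Itga7 shares 9 exon bases with Mettl7b on the opposite strand, which had 16 counts in all libraries together. Its partner Itgb1 had 260.2 ± 35.5 CPM in SMA and 307 ± 17.9 CPM in WT and was not called (adjusted p = 0.0688 by edgeR). The count ratio of Itga7 to Itgb1 was 0.502 to 0.649 in SMA and 0.344 to 0.46 in WT. The log2 difference was 0.38 without overlap (exact permutation test, adjusted p = 0.019). Without SMA 3 it was 0.29 and was not called (exact permutation test, adjusted p = 0.0536). The groups still did not overlap there, with 0.502 to 0.524 in SMA, and the smallest p that test can give is 0.0179. Against Itga6, another laminin-binding alpha chain, the ratio of Itga7 overlapped between the groups and was not called (log2 difference 0.22, exact permutation test, adjusted p = 0.19).

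Of the satellite cell surface genes, Sdc4 and Calcr rose and Megf10 was not called. Sdc4 (chr2:164424247-164443887, minus strand) encodes syndecan-4, a heparan sulfate proteoglycan that marks satellite cells and is also made by many other cells. It had 80.7, 78.4, 67.1 and 72.4 CPM in SMA, against 39.2, 41.6, 36.6, 36.3 and 43.6 CPM in WT. The groups were far apart, with the lowest SMA library above the highest WT library. The means were 74.7 ± 6.12 CPM in SMA and 39.5 ± 3.18 CPM in WT, a log2 fold change of 0.92 ± 0.083 with a 95% interval from 0.74 to 1.1 (adjusted p = 3.37e-06 by edgeR). Without SMA 3 it was 0.97.

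Sdc3, which encodes the other syndecan used to mark satellite cells, was not called, at 40.2 ± 7.14 CPM in SMA and 47.5 ± 5.79 CPM in WT (log2 fold change -0.24 ± 0.13, adjusted p = 0.123 by edgeR). The ratio of Sdc4 to Sdc3 counts was 1.4 to 2.34 in SMA and 0.718 to 1.05 in WT, without overlap, a log2 difference of 1.17 (exact permutation test, adjusted p = 0.019). In SMA libraries Sdc4 had more counts than Sdc3 throughout, whereas in WT it had more only in WT 5.

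Calcr (chr6:3685680-3764714, minus strand) encodes the calcitonin receptor, which satellite cells carry while at rest and lose on activation. It had 7.07, 6.26, 6.63 and 8.25 CPM in SMA, against 5.50, 4.71, 4.95, 6.08 and 4.43 CPM in WT. The groups were apart by a narrow gap, between 6.26 CPM in SMA 2, the lowest of its group, and 6.08 CPM in WT 4, the highest. The log2 fold change was 0.46 ± 0.13 with a 95% interval from 0.18 to 0.73 (adjusted p = 0.0086 by edgeR), and 0.49 without SMA 3. With sex in the fit it was 0.41 and was not called (adjusted p = 0.062). Pax7, the transcription factor gene that defines satellite cells, had 8.51 ± 2.2 CPM in SMA and 6.0 ± 1.2 CPM in WT. It rose by a log2 fold change of 0.51 ± 0.19 (adjusted p = 0.0386 by edgeR), a call lost in 10 of 19 alternatives, including with sex in the fit (adjusted p = 0.159) and without any of SMA 1, SMA 2, SMA 4, WT 1, WT 4 or WT 5 (adjusted p from 0.0758 to 0.119). Relative to Pax7, Calcr counts overlapped in the groups, with a mean log2 ratio of -0.24 ± 0.36 in SMA and -0.21 ± 0.38 in WT (exact permutation test, adjusted p = 0.913).

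Megf10 (chr18:57133090-57297467, plus strand) encodes a receptor with repeated EGF domains that keeps satellite cells dividing, and its loss in people causes a myopathy. It had 19.0, 18.6, 14.8 and 19.9 CPM in SMA, against 20.5, 23.7, 21.0, 21.9 and 17.9 CPM in WT. The groups overlapped only because WT 5 was low, and the log2 fold change of -0.22 ± 0.10 had a 95% interval from -0.45 to 0.01 (adjusted p = 0.0968 by edgeR). Without WT 5 it passed, at -0.27 (adjusted p = 0.0353). Against Pax7, the Megf10 count ratio was 1.95, 2.12, 2.74 and 1.95 in SMA, against 3.69, 3.52, 2.74, 4.42 and 3.46 in WT. The highest SMA library, SMA 3, came up to the lowest WT library, WT 3, and the log2 difference was -0.70 (exact permutation test, adjusted p = 0.0272).

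The genes of helix-loop-helix proteins, Hes6 and Heyl, both fell. Hes6 (chr1:91411483-91414038, minus strand) encodes a protein that counters the Notch effector Hes1 and promotes myoblast differentiation, and its promoter window is the first of the pair printed above. It had 13.1, 10.7, 10.9 and 12.3 CPM in SMA, against 22.5, 20.4, 21.2, 19.7 and 17.7 CPM in WT. The groups did not overlap. The means were 11.8 ± 1.2 CPM in SMA and 20.3 ± 1.8 CPM in WT, a log2 fold change of -0.79 ± 0.096 with a 95% interval from -1.0 to -0.58 (adjusted p = 3.46e-05 by edgeR), and -0.75 without SMA 3. Relative to Myog, its log2 count ratio was lower by 0.38 on average, at -2.98 in SMA and -2.60 in WT, with WT 5 inside the SMA range (exact permutation test, adjusted p = 0.0317). That call was lost when any of 8 of the 9 libraries was left out.

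Heyl (chr4:123233556-123249875, plus strand) encodes a repressor switched on by Notch, in satellite cells and also in the smooth muscle and pericytes of vessels. It had 17.7, 21.1, 29.1 and 21.6 CPM in SMA, against 33.5, 37.5, 37.4, 33.7 and 30.2 CPM in WT. SMA 3 lay close to the WT range, and the other SMA libraries lay well below it. The log2 fold change was -0.62 ± 0.13 with a 95% interval from -0.9 to -0.34 (adjusted p = 0.00148 by edgeR), and -0.78 without SMA 3. Scaling to total counts took it to -0.38 and ended the call (adjusted p = 0.0651). Notch3, the receptor gene of vessel mural cells and satellite cells, was not called, at 67.9 ± 8.96 CPM in SMA and 67.3 ± 11.7 CPM in WT (adjusted p = 0.935 by edgeR). The Heyl to Notch3 log2 ratio was -2.03, -1.84, -0.93 and -1.66 in SMA, against -0.90, -0.97, -1.18, -0.83 and -0.89 in WT. Here SMA 3 fell among the WT libraries, and the difference of -0.66 was called with all 9 libraries (exact permutation test, adjusted p = 0.0317) and in 1 of the 9 fits with a library left out, the one without SMA 3 (difference -0.89, adjusted p = 0.0306).

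**Figure D3:**
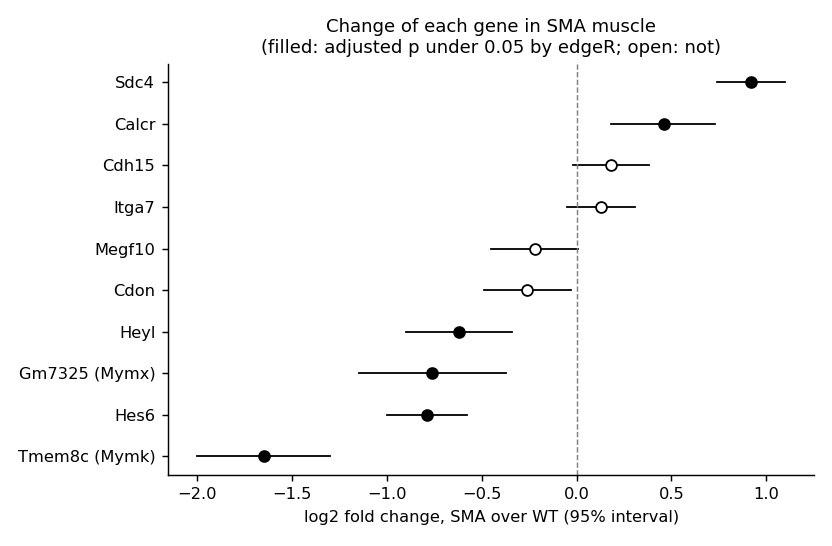
Log2 fold change of SMA over WT (horizontal axis) for each of the 10 genes, with 95% intervals that are not adjusted over genes; filled points passed edgeR's test at an adjusted p under 0.05 and open points did not. Tmem8c lies lowest at -1.65 and Sdc4 highest at 0.92, and the Cdon interval excludes 0 although its adjusted p of 0.0546 misses the threshold.

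With sex in the fit, the log2 fold changes of the other called genes were -1.71 for Tmem8c, -0.80 for Gm7325, -0.86 for Hes6, -0.70 for Heyl and 0.98 for Sdc4, and their calls held (adjusted p from 3.2e-05 to 0.0122 by edgeR). Under scaling to total counts the median over all genes tested was 0.24 on the log2 scale, in place of 0.006. There Tmem8c was at -1.42, Gm7325 at -0.54 and Hes6 at -0.56 and still passed, while Cdh15 at 0.40 and Itga7 at 0.35 passed as higher in SMA.

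Within the groups, SMA 3 was the lowest SMA library for 7 of the 10 genes and the highest for 1, Heyl. WT 5 was the lowest WT library for 8 of the 10. The coefficient of variation ran from 2.4% for Itga7 to 25.3% for Tmem8c in SMA, and from 8.05% for Sdc4 to 19.0% for Gm7325 in WT. Counts behind the values ran from 125 for Calcr to 5371 for Itga7 in 1 library.

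To order the genes by level, CPM was divided by kilobases of annotated exon (1511 bases for Tmem8c and 8092 for Itga7, for instance). In SMA muscle the order was Sdc4 at 29.3 CPM per kilobase, Itga7 at 17.3, Cdh15 at 12.2, Hes6 at 6.5, Tmem8c at 6.41, Gm7325 at 4.49, Heyl at 4.37, Cdon at 3.93, Megf10 at 2.34 and Calcr at 1.8. The libraries' ranges of neighbours overlapped from Hes6 through to Cdon and between Megf10 and Calcr, and the top 3 stood clear of each other and of the rest. In WT muscle the order was Tmem8c at 20.1 CPM per kilobase, Itga7 at 15.8, Sdc4 at 15.5, Hes6 at 11.2, Cdh15 at 10.8, Gm7325 at 7.61, Heyl at 6.74, Cdon at 4.71, Megf10 at 2.72 and Calcr at 1.31. There the ranges overlapped between neighbours among Tmem8c, Itga7 and Sdc4 and from Hes6 through to Heyl. Tmem8c was thus among the most abundant of the 10 per length in WT and the fifth in SMA.

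**Figure D4:**
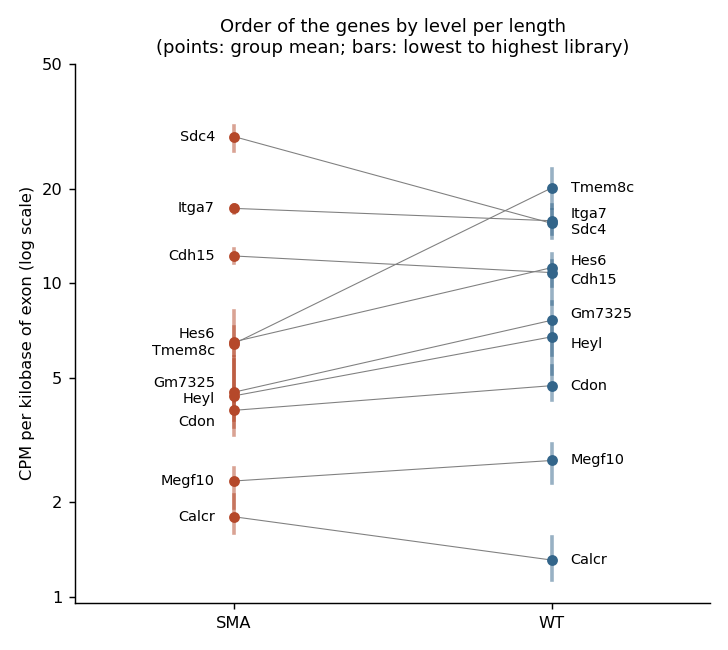
Mean level of the 10 genes in CPM per kilobase of exon (vertical log axis) in SMA (left) and WT (right); points are means, bars run from the lowest to the highest library, and grey lines join the same gene. Tmem8c is at 6.41 in SMA and 20.1 in WT, and Sdc4 is at 29.3 in SMA and 15.5 in WT, so their lines cross.

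Other genes of the fusion machinery moved both ways. Of 40 tested, 7 rose, 12 fell and 21 were not called (47.5% called, median log2 fold change -0.13, against 54.9% and 0.006 in all genes). Itga4, a partner of Vcam1 in myoblast adhesion, had 3.79 ± 0.66 CPM in SMA and 8.19 ± 0.70 CPM in WT (log2 fold change -1.11 ± 0.13, adjusted p = 2.49e-05 by edgeR). Nfatc2, a transcription factor gene that acts in fibre growth by fusion, rose by 1.42 ± 0.15, and the integrin gene Itga3 by 1.07 ± 0.11. Scaling to total counts gave 12 that rose and 5 that fell, and with sex in the fit 7 fell.

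Of 26 other satellite cell genes, 11 rose, 5 fell and 10 were not called (61.5% called, median 0.06). Myf5, the early myogenic regulator, rose beside Pax7, with 7.55 ± 0.34 CPM in SMA and 5.03 ± 1.30 CPM in WT (log2 fold change 0.58 ± 0.17, adjusted p = 0.0118 by edgeR). With sex in the fit it was 0.55 and was not called (adjusted p = 0.0503). Fgfr1, a growth factor receptor gene that many cells use, rose by 1.18 ± 0.09, and Gpx3, which encodes a secreted glutathione peroxidase, by 1.40 ± 0.094. Genes of the list that also belong to other cells, such as Cd34 in vessels and Ncam1 in fibres without nerve contact, are counted with the rest.

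Of 17 myogenic transcription regulators, 3 rose (Pax7, Myf5 and Mef2d, at 0.52 ± 0.15), 2 fell (Myog and Tcf4, at -0.31 ± 0.074) and 12 were not called, a share of 29.4%. Myod1 had 30.4 ± 6.29 CPM in SMA and 33.5 ± 3.95 CPM in WT and was not called (adjusted p = 0.384 by edgeR), but passed without SMA 3, at -0.29 (adjusted p = 0.038). Without SMA 3 the list held 5 that rose and 4 that fell, and under scaling to total counts 7 rose and 0 fell. Mef2d alone rose with sex in the fit, a count of 1. Upper quartile scaling, or leaving out WT 1 or WT 3, gave 4 that fell.

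In the Notch pathway, 12 of 36 tested genes rose, 7 fell and 17 were not called (52.8% called, median 0.06). Notch2 had 62 ± 6.72 CPM in SMA and 33.1 ± 5.55 CPM in WT (log2 fold change 0.90 ± 0.13). The ligand gene Jag2, at 0.92 ± 0.092, and Mib2, which encodes a ligase that acts on ligands, at 0.69 ± 0.066, rose as well. Other genes known as Notch targets, named after their values were seen, went both ways. Nrarp, a feedback inhibitor gene, fell by 1.19 on the log2 scale (SE 0.28, adjusted p = 0.00316 by edgeR), and kept its call in all alternatives. Hes1, at -0.33 ± 0.12 (adjusted p = 0.0361 by edgeR), and Hey1, at -0.32 ± 0.10 (adjusted p = 0.0178), fell in the fit of all libraries, but their calls were lost in 9 and 4 of 19 alternatives, among them with sex in the fit (adjusted p = 0.0834 for Hes1 and 0.114 for Hey1). Hey2 was higher on average, at 0.68 ± 0.27, and just missed a call (adjusted p = 0.0505), which it gained in 6 alternatives, and Hes5 did not pass the filter. The count that fell was 1 under scaling to total counts and 3 with sex in the fit. It was also 4 without WT 4, 4 without SMA 1 and 3 without SMA 4.

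Of 23 laminin receptor partners and syndecans, 6 rose, 7 fell and 10 were not called (56.5% called, median -0.07), with 2 that fell under scaling to total counts. Itga3 rose, as given above. Sdc2, at -0.90 ± 0.12, and the laminin chain gene Lama4, at -0.51 ± 0.093, fell. Among the syndecans, Sdc4 thus rose, Sdc2 fell, Sdc1 fell (-0.67 ± 0.19, adjusted p = 0.00933 by edgeR, named after its value was seen) and Sdc3 was not called. The Sdc1 call was lost with sex in the fit (adjusted p = 0.0576).

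**Figure D5:**
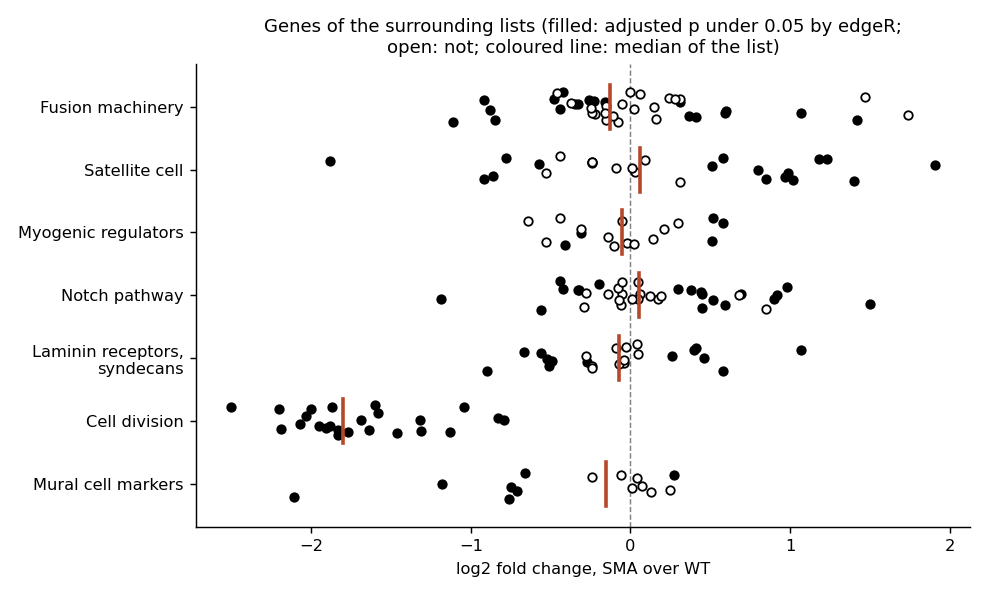
Log2 fold change of SMA over WT (horizontal axis) for the tested genes of 7 lists around the 10 genes; filled points passed edgeR's test at an adjusted p under 0.05, open points did not, and coloured lines are list medians. All 24 cell division genes lie below 0 around a median of -1.8, and the fusion, satellite cell, Notch and laminin lists spread to both sides of 0.

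Markers of other cells moved between the groups as well, and their part in the changes of the 10 genes was not tested. All 24 cell division genes fell, with a median of -1.8, and their summed level was 104 to 129 CPM in SMA and 314 to 393 CPM in WT. By adjusted p, the first were Top2a, at -2.50 ± 0.13, Aurka, at -1.95 ± 0.11, and Ccna2, at -1.91 ± 0.12. Of 12 fibre genes 9 fell and 1 rose (median -1.01), led by the fast myosin gene Myh4 at -1.24 ± 0.16, the myoglobin gene Mb at -1.88 ± 0.18 and the fast troponin gene Tnni2 at -1.19 ± 0.13.

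Vessel mural cells also express Heyl. Of 14 of their markers 6 fell, 1 rose and 7 were not called. Their summed level was 2837 to 3101 CPM in SMA and 3254 to 3661 CPM in WT, most of it Des, which muscle fibres also make. Without Des it was 595 to 803 CPM in SMA and 1083 to 1443 CPM in WT, lowest in SMA 3. Most of that gap was Acta2, with a mean of 119 CPM in SMA and 517 CPM in WT. Next came Abcc9, with 126 CPM in SMA and 213 CPM in WT. Which cells the Acta2 and Abcc9 transcripts came from was not tested, so the sum is no measure of mural cell number. Tagln was the 1 that rose, at 0.27 ± 0.095 (adjusted p = 0.0299 by edgeR). The mural count that rose was 0 under upper quartile scaling, with no low-count filter, and without any of WT 1, WT 3, SMA 2 or SMA 4. It was 2 without SMA 3 and 3 under scaling to total counts. Pdgfrb, Cspg4, Notch3, Cnn1 and Mcam were not called. Acta2, at -2.11 ± 0.20, Rgs5, at -1.18 ± 0.09, and Kcnj8, at -0.71 ± 0.088, fell, whereas Myh11 was not called, at 49.5 CPM in SMA and 41.7 CPM in WT (adjusted p = 0.128 by edgeR), and passed as higher in SMA without SMA 3 (adjusted p = 0.0235) and under scaling to total counts (adjusted p = 0.0131). Of 12 endothelial markers 3 fell and 9 were not called (846 to 1068 CPM in SMA and 906 to 1102 CPM in WT), with Tek at -0.40 ± 0.086, Cdh5 at -0.32 ± 0.11 and Erg at -0.26 ± 0.096. The calls of Cdh5 and Erg were lost in 8 and 7 of 19 alternatives, so that 1 marker fell with sex in the fit and without any of WT 2, WT 3, WT 4, SMA 1 or SMA 4, and 0 under scaling to total counts by edgeR. Without SMA 3 and WT 5 together 5 fell.

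Of 11 tested fibroblast markers 8 fell and 1 rose, with 2399 to 3620.5 CPM over the 12 listed in SMA and 4194 to 8121 CPM in WT. Lum, at -1.41 ± 0.12, Col1a1, at -1.54 ± 0.30, and Col1a2, at -1.28 ± 0.27, fell. Pdgfra rose, at 0.34 ± 0.11 (adjusted p = 0.0204 by edgeR), though 0 rose with sex in the fit, under upper quartile scaling, or without SMA 1 or SMA 2. Osr1 and Ly6a were not called. Most of the summed level was Col1a1, Col1a2 and Col3a1. They averaged 486, 755 and 1568 CPM in SMA and 1411, 1837 and 2450.5 CPM in WT. Of 10 Schwann cell markers 9 rose (median 1.41), with 1082 to 2390.3 CPM in SMA and 417 to 952 CPM in WT, among them Ncmap at 2.11 ± 0.25 and Erbb3 at 1.35 ± 0.14. Of 12 macrophage markers 7 fell and 1 rose, with 99.2 to 129 CPM in SMA and 148 to 193 CPM in WT. Among those that fell were Mrc1 at -1.72 ± 0.10, Itgam at -1.12 ± 0.25 and Adgre1 at -0.78 ± 0.19. Cd163 rose, at 0.54 ± 0.17 (adjusted p = 0.0189 by edgeR), though 0 rose without SMA 1 or SMA 2. With sex in the fit 4 macrophage markers fell, and under scaling to total counts 4 macrophage and 4 fibroblast markers fell. Of the 10 neuron markers, 3 passed the filter and 0 were called by edgeR or limma-voom, with 1 of them, Tubb3, at an unadjusted p under 0.05 by edgeR. DESeq2 gave an adjusted p for Map2 alone, which it did not call. Tubb3 passed by edgeR without SMA 1, SMA 2 or SMA 4 (adjusted p from 0.0348 to 0.0381) and under scaling to total counts (0.0418). Tubb3 averaged 2.74 CPM in SMA and 0.47 CPM in WT, Map2 9.07 CPM in SMA and 5.39 CPM in WT, and Stmn2 8.23 CPM in SMA and 4.73 CPM in WT. Without SMA 3 the log2 fold change of all 3 was negative.

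The genes whose profile over the 9 libraries was most like that of Tmem8c were looked for across the whole table. Likeness was the root mean square difference of log2 CPM after centring each gene on its own mean, over 13853 genes with a mean of at least 1 CPM, and it is a description with no test. The 5 nearest were Mrc1, a macrophage marker, at 0.126, Mdga1 at 0.17, Kif2c, a mitotic kinesin gene, at 0.173, Rad54l, a DNA recombination gene, at 0.178 and Prr11 at 0.179. Of the other 9 genes, Hes6 came nearest, at place 605 with 0.481, followed by Gm7325 at place 685 with 0.495. All 5 fell in SMA, with log2 fold changes from -1.84 to -1.51, and the measure includes that shared difference between the groups.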

How the data were processed

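The 9 libraries, 4 of SMA and 5 of wild type hindlimb muscle, were made from 200 ng of total RNA by a stranded preparation that selects polyadenylated RNA, per the labels' protocols. HTSeq 0.9.1, DESeq2 1.16.1 and the build mm10 are named per the submitters' processing notes. No aligner, annotation or strand setting is stated in these sources. One table deposited by the authors holds raw counts of reads per gene, as whole numbers. Another deposited table holds a signal per gene, the count over the library's size factor (0.734 to 1.23). It served only to check the counts.

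Groups came from the labels. The members, gene lists, gene pairs and tests were chosen with earlier results of these data known. Testing used edgeR 4.0.16 in R 4.3.3 (filterByExpr, TMM scaling, quasi-likelihood F test with group as the 1 term, Benjamini-Hochberg over 15873 genes, threshold 0.05). The fit was tested on simulated data in which few genes changed, with directions drawn at random. In the real data 54.9% were called, so the simulation cannot show how scaling or error rate held here. CPM uses TMM-scaled library sizes, and log2 CPM a prior count of 2. SE is the log2 fold change divided by the root of F, and 95% intervals use the t quantile of the fit and are not adjusted. Log2 count ratios (pseudocount 1) were tested by a two-sided exact permutation of the 9 libraries, adjusted over 12 pairs. Exon lengths and coordinates are from GENCODE M21 (mm10), and promoters from RefSeq.

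Named genes were all 10 members, the ratio partners, the 3 tested genes of each of 13 lists with the lowest adjusted p, and the 5 genes most like Tmem8c. Of these, 2 are not reported here. All 250 list entries matched a table row. Alternatives were other scalings and filters, DESeq2 1.42.0, limma-voom (limma 3.58.1), sex or replicate number as a term, pseudocount 0.5, and left-out libraries. No pair of replicates was a duplicate, since within groups chi-square per degree of freedom was 11.2 to 81.3.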

Additional observations from a re-analysis of the deposited data

Results flagged for a closer look

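The 10 CPM values and the 12 count ratios were examined in each group for a library far from the others, 44 groups in all, of which chance alone would mark about 1 in 20. One was marked. The count ratio of Itga7 to Itgb1 was 0.649 in SMA 3, against 0.502 to 0.524 in the other 3 SMA libraries. SMA 3 is also the library with the high neuron marker sum, and whether the 2 go together was not tested.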

How the results depend on the processing

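Tmem8c, Gm7325, Sdc4 and Hes6 kept their direction and call in all 19 alternatives. The call of Heyl ended under scaling to total counts and that of Calcr with sex in the fit. Cdon, Megf10, Cdh15 and Itga7 were gained in 6, 4, 1 and 1 alternatives, the last 2 under scaling to total counts. There 4 of the 10 genes rose and 2164 of all genes fell, and Megf10 turned to 0.003. With sex in the fit 1 of the 10 rose. The causes were not tested.

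Pairing of samples by replicate number was not evident, with correlations of deviations of 0.118, -0.00555, -0.0482 and 0.0971. Such values cannot show that there was none. A fit with a replicate block on 8 libraries called 3973 genes as higher and 3899 as lower and gained Megf10 (adjusted p = 0.0405). The paired sign-flip test of the ratios called 0 of 12 and could not do otherwise, since its smallest p is 0.125. With 1 library left out, 5 to 9 ratios were called, with fewer divisions to test. Tmem8c to Gm7325, Tmem8c to Myog, Sdc4 to Sdc3 and Megf10 to Pax7 passed each time. Cdh15 to Cdh2 lost its call in 3 and Cdon to Boc in 2 of the 9. The groups of both pairs stayed without overlap each time. The smallest p that the test could give was 0.0179 with 3 SMA and 5 WT libraries and 0.0286 with 4 SMA and 4 WT.

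The sign turned in values that the fit of all libraries did not call. Myod1 was 0.104 under total counts. Calcr to Pax7 ran from -0.203 to 0.102 over left-out libraries. Notch3 ran from -0.047 to 0.109, and was -0.045 under upper quartile scaling and -0.042 with sex or with the replicate block. Itga6 was 0.139 under total counts, 0.003 with sex and 0.041 without SMA 3 and WT 5. Over left-out libraries Tubb3 ran from -1.042 to 2.945, Map2 from -0.036 to 0.958 and Stmn2 from -0.307 to 1.044, and without SMA 3 and WT 5 Map2 was -0.099 and Stmn2 -0.316. Counts of the 10 genes reached down to 125 in 1 library, for Calcr.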
